A study of Mus musculus with 18 samples.

Results

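The measure described here is the change, between genotypes, of the difference in RNA level between the apex and the base of the mouse cochlea. For each gene the apex minus base difference in Fst conditional knock-out (cKO) cochleae had the same difference in control cochleae taken from it, all on the log2 scale. A value below 0 means that the RNA lay relatively more to the base in the cKO, and a value above 0 that it lay relatively more to the apex. The measure draws on 12 of the 18 libraries of the series: 3 each from control base, control apex, cKO base and cKO apex. Of 17537 genes tested, 420 (2.39%) had a change that passed an adjusted p of 0.05 with an absolute log2 value of at least 1, and these are the genes described.

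All mice were 4 weeks old. The labels give the control genotype as WT, untreated, and the other genotype as Fst cKO. The Cre driver, the age at recombination and the number of animals per pool are not given in the sources used here. Cochleae were cut into base, middle and apex, and the pieces of each region and genotype were pooled before RNA extraction. The RNA of each pool was then split into 3 technical replicates, so each group is 1 pool, n = 3 below counts libraries, and every p-value measures the spread between libraries of a pool, not between animals.

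The cochlea is a coil in which sound frequency is mapped along its length. The base, next to the middle ear, receives high frequencies and the apex low ones, and hair cells, supporting cells and the tectorial membrane above them differ in shape and gene expression along that axis. Follistatin, the protein made from Fst, is a secreted antagonist that binds activins and some bone morphogenetic proteins (BMPs) outside the cell, and it is known to be enriched toward the apex. The title of the series asks how follistatin relates to a hedgehog-dependent organization of the apex. Each piece of cochlea also carries surrounding bone and marrow, nerve, vessels and lining tissue, and each gene group below is therefore given with what it marks.

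Library totals ran from 24446760 to 31117987 counts, and levels are given as counts scaled to a common library size (CPM). A gene at 0 in a library could still be present at up to 3 counts, or 0.0964 to 0.123 CPM. Libraries of the same pool differed only slightly more than counting predicts, with a chi-square of 1.15 to 1.56 per degree of freedom. The median of the gradient change over all genes tested was 0.01. Xist, a noncoding RNA made from the inactive X chromosome, stood at 308.7 CPM in control base and 360.1 in control apex, against 60.3 in cKO base and 80.7 in cKO apex. The pools of the genotypes therefore differed in it, cKO minus control, by -2.16 on the log2 scale in apex and -2.36 in base, while its gradient change was 0.20. Its part in other differences between genotypes was not tested.

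Most gradients of the control cochlea had the same sign in the cKO. Of 944 genes graded in the control (5.38% of those tested, 391 higher in apex and 553 higher in base), 866 had the same sign in the cKO and 518 (54.9%) also passed the thresholds there. The opposite gradient passed in the cKO for 27. Another 399 did not pass in the cKO, but the change itself was called for only 90 of these. In the cKO 1140 genes were graded (6.5%, 463 apical and 677 basal). Across genes, the control and cKO gradients had a Pearson r of 0.56 and a Spearman rho of 0.67, or 0.68 and 0.77 among the 12761 genes with at least 5 CPM in a pool. Genes are not independent replicates, and these values are a description.

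**Figure D1:**
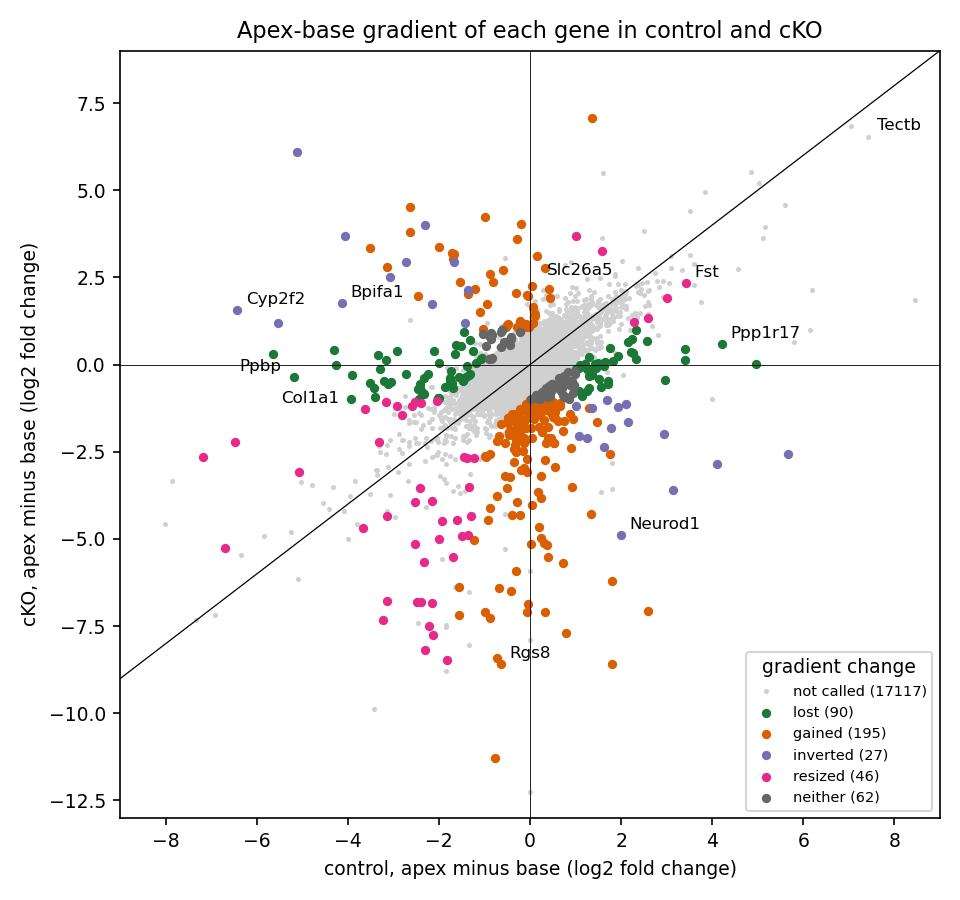
Each point is a gene, with its apex minus base log2 fold change in control on the horizontal axis and in cKO on the vertical axis. On the diagonal the gradients are equal; the 420 coloured genes left it, and the gained class (195 genes) lies mostly along the vertical axis below 0.

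Among the 420 called genes, 90 had lost a gradient, meaning that apex and base differed in control and not in cKO by the same thresholds. Of these, 38 had been higher in the apex of the control and 52 higher in its base. A gradient was gained, with a difference in cKO only, for 195 genes, 43 of them higher in the cKO apex and 152 in the cKO base. It was inverted for 27, of which 15 went from apical to basal and 12 from basal to apical. Both genotypes had a gradient of the same sign but different size for 46 (6 apical and 40 basal), and for 62 neither gradient passed on its own. Upward changes were called for 141 genes (0.804% of those tested) and downward ones for 279 (1.59%). With the adjusted p alone, 4194 genes (23.9%) passed and the balance turned, with 60.3% of calls upward against 33.6% here. Among the 12761 genes with at least 5 CPM in a pool, 132 were called, or 1.03%. In at least 1 pool, 54 of the called genes had at most 3 counts.

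Which of the 4 pools carried a change was read from the 4 pool means of log2(CPM + 0.5). A pool was said to stand apart when its gap to the nearest pool was wider than the span of the other 3. By that rule cKO base stood apart as the high pool for 160 called genes (38.1%), against 7.8% of all genes tested. The cKO apex was the high pool for 45 (10.7%, against 5.73% of all). The control apex was the low pool for 44 (10.5%, against 7.61%). In 30 genes the control base was low (7.14%, against 3.06%), and in 11 the cKO apex was low (2.62%, against 4.06%). The control apex was high in 7 (1.67%, against 6.16%) and the control base high in 4 (0.952%, against 3.08%). The cKO base was low in 2 (0.476%, against 8.03%). For the remaining 117 (27.9%, against 54.5%) no pool stood apart.

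The classes divided by pool. Of the 152 genes that gained a basal gradient, 127 had cKO base as the high pool and 10 had cKO apex as the low one. The 43 gained apical gradients rested on a high cKO apex in 35. A low control apex stood apart in 36 of the 52 lost basal gradients, and a low control base in 24 of the 38 lost apical gradients. Since a lost gradient is by definition present in the control, the pool that stands apart there is usually a control pool, and these counts carry no test. Between genotypes, 1.92% of all genes tested differed in apex and 2.95% in base. That difference was called in base only for 200 of the 420 genes, in apex only for 115, in both for 19 and in neither for 86.

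**Figure D2:**
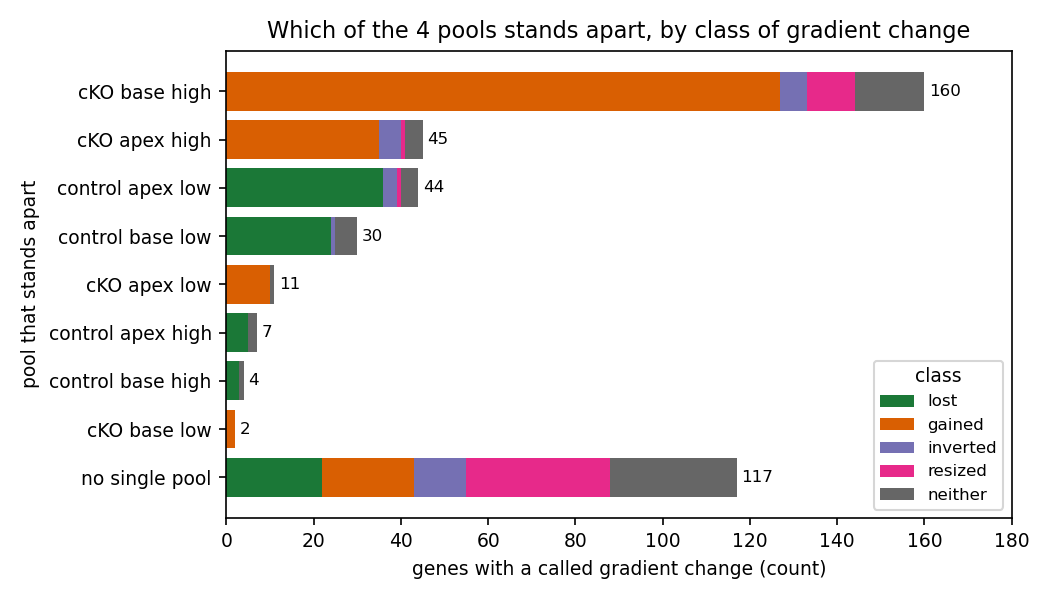
Bars give the number of called genes (horizontal axis, count) for each pool that stood apart, coloured by class. The longest bar, 160 genes with a high cKO base, is mostly gained gradients, and the 44 with a low control apex are mostly lost ones.

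The middle pools took no part in choosing these genes and show where each odd pool sits along the coil. Of the 160 genes with a high cKO base, 138 (86.2%) were also higher there than in both middle pools, against 76.3% of all tested genes with that pattern, and 86 (53.8%) were at least 2-fold higher, against 8.77%. For a high cKO apex it was 43 of 45 (95.6%, against 88.9%) above both middle pools, and 30 (66.7%, against 4.98%) by at least 2-fold. For a low control apex 40 of 44 (90.9%, against 79.8%) were below both, and 24 (54.5%, against 3.75%) by at least 2-fold. A low control base was below both middle pools in 29 of 30 genes (96.7%, against 69.8%). In only 3 (10%, against 1.49% of all tested genes with that pattern) was it 2-fold below them, so the middle pools were often low for those genes too. The fold threshold that chose the called genes also bears on the shares at 2-fold, which carry no test. Among the 4 pools, genes with at least 30 counts in 1 pool and at most 3 in each of the other 3 numbered 19 for cKO base and 5 for cKO apex, and 0 for either control pool. Some of the 19 were present in cKO middle as well, where Tlx3 stood at 1.98 CPM against 1.08 in cKO base and Skor2 at 0.603 against 0.421.

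Fst itself changed in gradient by losing level in the apex. It lies on chromosome 13 (114452290 to 114458951, minus strand, GRCm38) and is protein coding. In control base its libraries held 2.10, 2.09 and 2.47 CPM, in control apex 22.8, 24.4 and 24.0, in cKO base 2.02, 1.93 and 1.77, and in cKO apex 9.53, 9.41 and 10.1. The apex libraries of the genotypes did not overlap, whereas the base libraries lay within 1 CPM of each other. The apex minus base difference was 3.43 ± 0.08 (log2, SE) in control and 2.34 ± 0.10 in cKO, a change of -1.09 ± 0.16 with an adjusted p of 3.75e-06 in edgeR's quasi-likelihood test. Both gradients passed, so Fst was resized and not lost, and no pool stood apart. Fst RNA in the middle pools was 6.4 CPM in control and 2.99 in cKO, between base and apex in both. Which exons the knock-out removes is not given in the sources used here, so remaining Fst counts can include RNA of the recombined gene.

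Of the activin, BMP and follistatin list, Fst and 1 other member were called. Of 36 members tested, 0 changed upward (0.804% of all genes tested did) and 2 downward (1.59% of all), Fst and Acvr1c. The list median was 0.07. Acvr1c encodes a type I receptor of the activin family. Its libraries held 0.394, 0.563 and 0.418 CPM in control base, 1.42, 1.69 and 1.79 in control apex, 0.952, 1.30 and 0.986 in cKO base and 0.953, 1.24 and 1.27 in cKO apex. The control gradient of 1.82 ± 0.25 became 0.10 ± 0.23 in the cKO, a change of -1.72 ± 0.34 (adjusted p 0.000292), with control base as the low pool. Inhba, the gene of an activin subunit and so of a ligand that follistatin binds, stood at 1.12 CPM in control base, 3.20 in control apex, 1.45 in cKO base and 3.46 in cKO apex, a change of -0.24 ± 0.26 that was not called.

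Several BMP-related members passed the adjusted p upward without reaching the fold threshold. Id1, a target gene of BMP receptors, had a change of 0.37 ± 0.041 (adjusted p 1.77e-08), with 80.9 CPM in cKO apex against 48.4 to 55.6 in the other 3 pools. Id3, of the same family, stood at 197.5 CPM in cKO apex against 157.0 in control apex, with a change of 0.30. Smad6, an inhibitory Smad that BMP signals induce, stood at 41.6 CPM in cKO apex and 33.6 in control apex, with a change of 0.41 and an adjusted p of 3.43e-07. Grem1, a secreted BMP antagonist, had a change of 0.97, at 2.43 CPM in cKO apex and 1.41 in control apex. Over the list, the adjusted p alone passed for 9 members upward and 4 downward, beside 14.4% and 9.51% of all genes tested.

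In the hedgehog list, 0 of 19 members tested were called in either direction (2.39% of all genes tested were), with a median of 0.09. By the adjusted p alone, 6 passed upward and 2 downward, beside 14.4% and 9.51% of all genes tested. Shh, the ligand, stood at 4.50, 4.47 and 5.06 CPM in control base, 2.95, 3.24 and 2.57 in control apex, 3.29, 2.88 and 2.84 in cKO base and 3.15, 3.25 and 4.01 in cKO apex. The control base libraries lay above those of the other 3 pools. Its change of 0.88 ± 0.19 (adjusted p 0.000576) stayed under the fold threshold. Gli1, a transcription factor induced by the pathway, was graded to the base in both genotypes, at 9.95 CPM in control base, 3.81 in control apex, 7.68 in cKO base and 3.74 in cKO apex, and its change of 0.35 ± 0.14 had an adjusted p of 0.0702. Hhip, an antagonist that binds the ligand, had a change of 0.55 with an adjusted p of 0.000129, and its levels were 13.2 and 7.45 CPM in control base and apex and 9.39 and 7.77 in the cKO. Ptch1, the receptor, ranged only from 61.6 to 72.2 CPM over the 4 pools.

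The hair cell list leaned to the apex in both genotypes, and 1 member was called for a change. Of 24 tested, 13 were higher in control apex (2.23% of all genes tested were) and 1 higher in control base (3.15% of all). In the cKO 11 were higher in apex (2.64% of all) and 0 in base (3.86% of all), with median gradients of 1.13 and 0.89. The change was called for 0 upward and 1 downward, Xirp2, with a median of -0.11. Slc26a5, the gene of prestin, the motor protein of outer hair cells, stood at 3.28, 3.81 and 3.10 CPM in control base, 20.4, 20.7 and 19.6 in control apex, 3.41, 4.02 and 3.82 in cKO base and 19.0, 19.5 and 20.3 in cKO apex. The genotypes overlapped in both regions, and the change was -0.18 ± 0.12 (adjusted p 0.353). Pou4f3, a transcription factor needed for hair cell survival, had gradients of 1.81 in control and 1.89 in cKO. Otof, needed for transmitter release by inner hair cells, had gradients of 1.45 and 1.36. Xirp2, an actin-binding protein of hair cells and of muscle, held 0.460, 0.265 and 0.377 CPM in control base, 1.70, 1.79 and 1.79 in control apex, 0.674, 0.591 and 0.710 in cKO base and 1.25, 1.13 and 0.911 in cKO apex, and its change was -1.52 ± 0.37 (adjusted p 0.00262). Xirp2 was highest outside the comparison, at 3.11 CPM in cKO middle against 0.416 in control middle. Of the 9 outer and 9 inner hair cell genes tested, 0 were called. By the adjusted p alone, 0 inner hair cell genes passed upward and 6 downward, with a list median of -0.25. For outer hair cell genes it was 2 and 2, with a median of 0.03, beside 14.4% and 9.51% of all genes tested. The 20 supporting cell genes also gave 0 calls, with Epyc, a small proteoglycan, at gradients of 1.87 and 1.89, and Emilin2, an extracellular matrix protein, at 2.62 and 2.15.

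**Figure D3:**
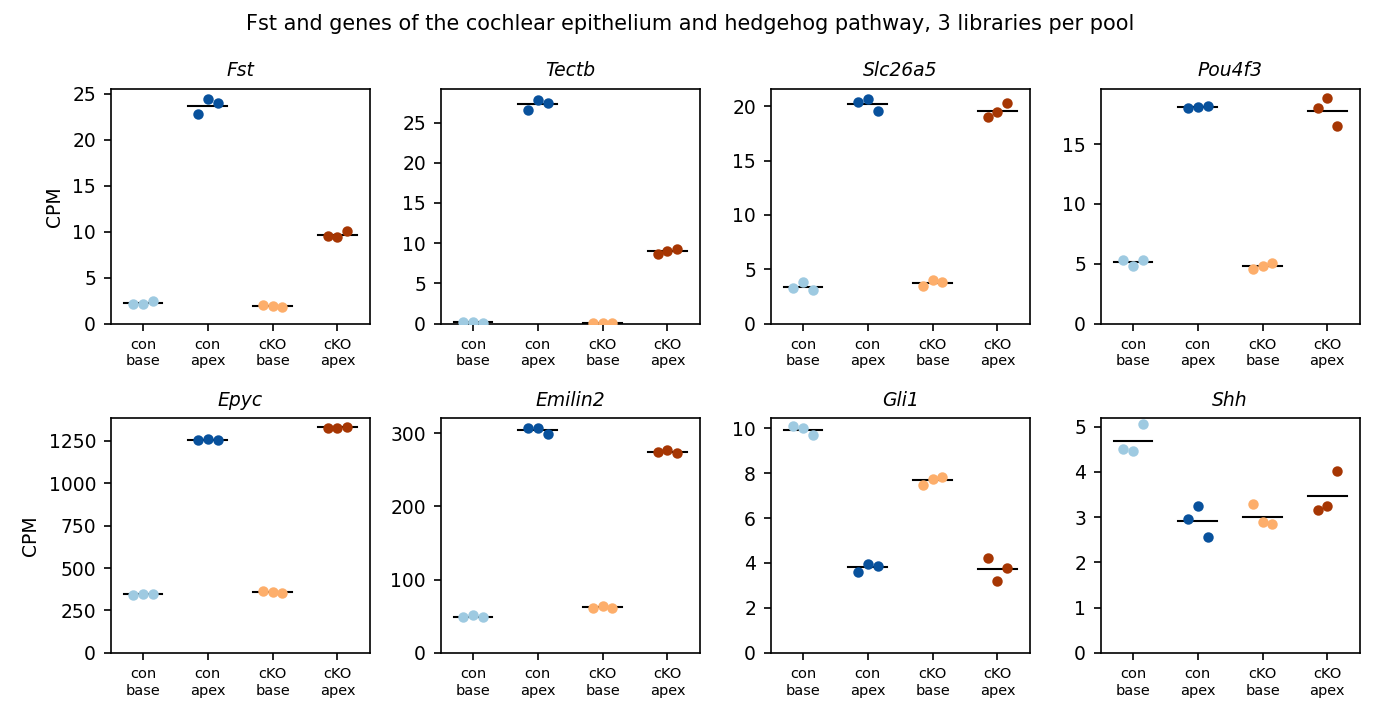
Points are the 3 libraries of each pool and lines their means, in CPM on an axis from 0, for Fst, 5 genes of the organ of Corti and its matrix, and Gli1 and Shh. Fst and Tectb were lower in cKO apex than in control apex, at 9.69 against 23.7 and 8.99 against 27.2 CPM, while the apex means of Slc26a5 were 19.6 and 20.2 and those of Pou4f3 17.8 and 18.1.

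Tectb, the gene of beta-tectorin in the tectorial membrane, differed between genotypes in apex level without a called gradient change. It stood at 26.6, 27.8 and 27.4 CPM in control apex and 8.61, 9.08 and 9.29 in cKO apex, and these did not overlap. In base it was 0.0921 CPM in cKO and 0.146 in control, near the limit of 3 counts. The apex difference between genotypes was -1.60 on the log2 scale, and the gradient, 7.43 ± 0.14 in control and 6.54 ± 0.21 in cKO, had a change of -0.89 ± 0.67 (adjusted p 0.424). Of the 13 tested genes of tectorial and other gel proteins, 1 was called. This was Otol1, which encodes otolin of the vestibular otoconia, at 0.436 CPM in control base, 2.60 in control apex, 1.01 in cKO base and 1.62 in cKO apex, a change of -1.89 ± 0.36 (adjusted p 0.000174). Its level was highest outside the comparison, at 4.84 CPM in cKO middle against 0.589 in control middle.

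The largest group, gained basal gradients with a high cKO base, included genes of cerebellar neurons such as Cbln3 and Pcp2. The list of 20 cerebellar and brainstem genes had 15 tested members. Of these, 0 changed upward (0.804% of all genes tested did) and 7 downward (1.59% of all). Those 7 included Neurod1, Pcp2, Cbln3, Pax6, Zic1 and Cbln1. These were of more than 1 class: Neurod1 was inverted, and Cbln1 and Zic1 were resized. The list median was -2.51, and it was also -2.51 over the 13 members with more than 3 counts in every pool. Neurod1, a transcription factor of granule and other neurons, held 0.0985, 0.298 and 0.167 CPM in control base, 0.780, 0.811 and 0.709 in control apex, 18.2, 17.9 and 18.9 in cKO base and 0.660, 0.693 and 0.473 in cKO apex. The cKO base libraries lay far above those of the other 3 pools, and the change was -6.89 ± 0.38 (adjusted p 3.57e-15). Cbln3, a synaptic organizer secreted by cerebellar granule cells, stood at 65.0 CPM in cKO base and at 1.74 to 1.81 in the other 3 pools, a change of -5.19 ± 0.19. Pcp2, a protein of Purkinje cells, stood at 9.80, 11.2 and 10.6 CPM in the cKO base libraries and at most 0.460 in any other library, a change of -5.61 ± 1.1.

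Gabra6, a GABA receptor subunit of granule cells, had 570, 582 and 550 counts in the cKO base libraries and 0 in all 9 libraries of the other pools. Against a floor of 3 counts over a pool, it was at least 630.2-fold higher in cKO base than in control base and at least 590.0-fold higher there than in cKO apex. It was tested and not called, and so is not among the 420. Because both control pools and cKO apex were at 0, its fitted change does not estimate a size. In the middle pools it was 0.0231 CPM in control and 0.0396 in cKO.

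The summed level of the whole cerebellar and brainstem list ran from 832.0 to 846.1 CPM in cKO base, 701.7 to 729.4 in control base, 748.5 to 750.4 in control apex and 691.8 to 706.1 in cKO apex. Of that sum 41.8% was Slc17a7, a vesicular glutamate transporter also found in spiral ganglion neurons, which was lower in cKO base (222.1 CPM) than in control base (312.3). Gabra6, Skor2 and Chrnb3 were at 0 in both control pools. The part of such RNA in the other differences of cKO base was not tested.

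Large gained basal gradients among genes with at least 5 CPM in a pool included Rgs8 and Gm20388. Rgs8, a regulator of G protein signalling, held 33.8, 34.1 and 36.5 CPM in cKO base and at most 0.265 in any library of the other 3 pools, a change of -7.97 ± 0.89 (adjusted p 2.56e-08). It was also present in cKO middle, at 10.1 CPM against 0.0231 in control middle. Gm20388 had uneven libraries: 13.9, 16.3 and 11.2 CPM in control base, 21.2, 0 and 3.51 in control apex, 15.9, 0.0788 and 17.5 in cKO base and 0 in all of cKO apex. It overlaps Usp10, Galnt2 and 1810008B01Rik, and without control apex replicate 1 its fitted change went from -10.51 to -8.27 and was no longer called.

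Other called genes that were highest in cKO base, chosen after their values were seen, were Grm4, Fat2, Cbln1 and Zic1. Grm4, a metabotropic glutamate receptor, stood at 48.6 CPM in cKO base and 7.28 to 8.75 in the other pools, a change of -2.31 ± 0.10. Fat2, a cadherin of granule cells, stood at 131.1 CPM in cKO base and 54.2 to 63.5 in the other 3 pools, a change of -1.23 ± 0.037. Cbln1, a relative of Cbln3, was graded to the base in control (7.95 against 2.80 CPM) and more so in cKO (44.3 against 1.47), a resized gradient with a change of -3.40 ± 0.15. Zic1, a transcription factor of granule cells and meninges, was also resized, at 8.89 and 0.947 CPM in base and apex of the control and 45.9 and 0.280 in the cKO, a change of -4.11 ± 0.29, and no pool stood apart.

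Inversion from apical to basal was called for 15 genes, and in the 4 named by the rule on level and size (Neurod1, Gad1, Kcnd2 and Nptx1, all neuronal) cKO base was the highest pool. Gad1, an enzyme that makes GABA, stood at 0.886, 0.728 and 1.09 CPM in control base, 3.70, 4.12 and 4.02 in control apex, 16.6, 18.1 and 17.0 in cKO base and 5.20, 5.25 and 5.90 in cKO apex. No 2 pools overlapped, and the change was -3.81 ± 0.17 (adjusted p 3.9e-17). Kcnd2, a potassium channel subunit, went from 1.41 and 3.39 CPM in control base and apex to 7.79 and 1.80 in the cKO, a change of -3.36 ± 0.21. Nptx1, a neuronal pentraxin, went from 2.95 and 11.3 CPM to 27.5 and 11.9, with the apex pool means within 1 CPM of each other and a change of -3.14 ± 0.10. For Nptx1 the rule on pools named control base, as the low one.

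Glial genes of the central nervous system were called in the same direction, mostly with no single pool apart. Of 14 tested oligodendrocyte and astrocyte genes, 0 changed upward and 7 downward (Olig2, Klk6, Olig1, Mog, Mobp, Ermn and Gfap). Of all genes tested, 0.804% and 1.59% did. The list median was -1.17, and -0.24 over the 10 members with more than 3 counts in every pool. Mobp, a protein of central myelin, held 21.9, 22.2 and 21.6 CPM in control base, 3.43, 4.39 and 3.88 in control apex, 32.5, 33.3 and 35.0 in cKO base and 0.293, 0.255 and 0.328 in cKO apex. No pools overlapped, and the change was -4.33 ± 0.20 (adjusted p 3.5e-17). Its level was highest outside the comparison, at 97.6 CPM in control middle. Gfap, an intermediate filament of astrocytes and some other glia, was 24.5 and 24.3 CPM in the base pools and 4.22 in control apex against 1.57 in cKO apex. Mog, another protein of central myelin, had 247 counts in cKO base and 2 in cKO apex, a ratio of 128.4 (95% interval 35.2 to 1066.4). Klk6, a protease of oligodendrocytes, had 74 and 0, at least 25.7-fold lower in cKO apex, and Olig1, an oligodendrocyte transcription factor, had 227 and 1. Olig2, its relative, with 50 and 0 counts, was no longer called without control apex replicate 1 or 3 (fitted changes of -5.25 and -5.26). The list's summed level was 556.5 to 560.2 CPM in cKO base, 427.0 to 431.2 in control base, 358.0 to 366.9 in control apex and 372.0 to 379.8 in cKO apex. Cldn11, which is also a member of the fibrocyte and spiral ligament list, made up 50.5% of it, and Opalin, Olig2 and Klk6 were at 0 in cKO apex.

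Lost apical gradients rested mainly on control base being low. Ppp1r17, a phosphatase inhibitor of Purkinje cells, held 0.558, 0.827 and 0.628 CPM in control base, 12.3, 12.2 and 13.1 in control apex, 5.63, 5.56 and 6.59 in cKO base and 8.25, 8.79 and 9.51 in cKO apex. Base libraries of the cKO lay above those of the control without overlap, and the gradient fell from 4.21 ± 0.13 to 0.58 ± 0.092, a change of -3.63 ± 0.18 (adjusted p 3.1e-16). Slc8a2, a sodium-calcium exchanger of neurons, stood at 3.28 CPM in control base against 13.6 to 16.5 in the other 3 pools, a change of -2.18 ± 0.13. Its middle pools were low as well, at 4.87 CPM in control and 6.02 in cKO, and those of Ppp1r17 stood at 2.39 and 1.22. Tunar, a transcript of neural tissue, stood at 1.68 CPM in control base, 3.87 to 7.54 in the other 3 pools and 2.47 and 2.52 in control and cKO middle, a change of -1.52 ± 0.20. Kcnj3, a potassium channel subunit, stood at 2.48 CPM in control base, 6.08 in control apex, 3.95 in cKO base and 3.60 in cKO apex, so that both cKO pools lay between the control ones, a change of -1.42 ± 0.19. Pcp4, a calmodulin regulator of Purkinje and other neurons, stood at 15.1 CPM in control base, 51.1 in control apex, 29.0 in cKO base and 40.5 in cKO apex, a change of -1.28 ± 0.059. Its highest level was again in a middle pool, at 100.7 CPM in cKO middle.

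**Figure D4:**
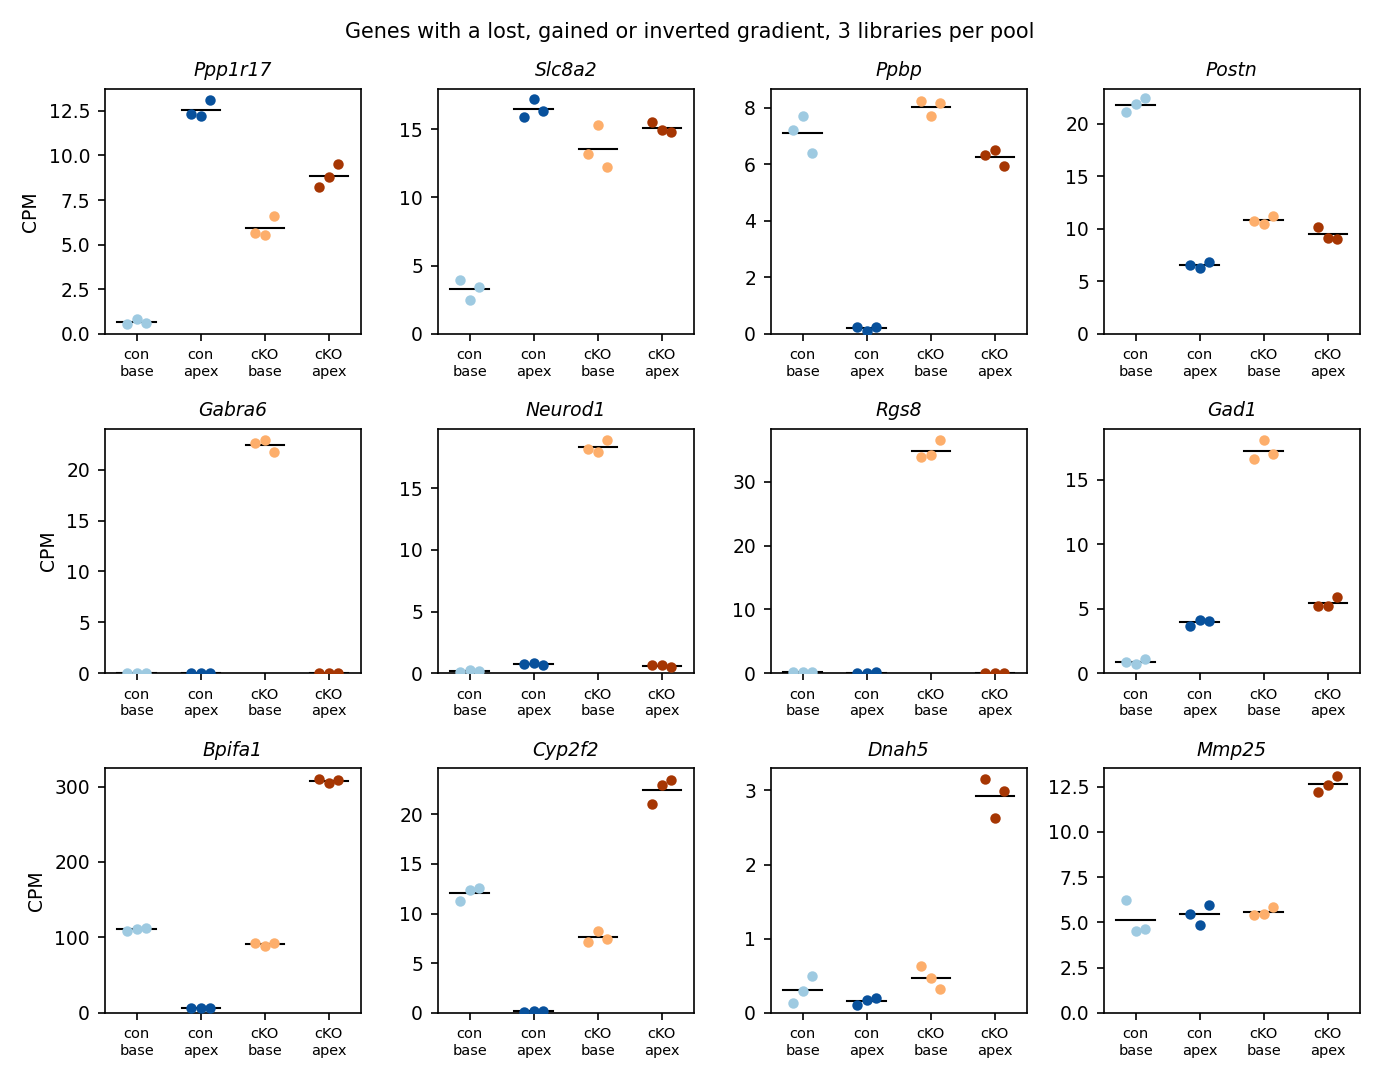
Points are the 3 libraries of each pool and lines their means, in CPM on an axis from 0; the top row holds lost gradients, the middle row genes high in cKO base, and the bottom row genes of the airway-type lining and Mmp25. Among the 4 pools Ppp1r17 and Slc8a2 are lowest in control base, Ppbp, Bpifa1 and Cyp2f2 are low in control apex, and Dnah5 and Mmp25 are high in cKO apex.

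Some genes of a mucosal lining like that of the airway, which also lines the middle ear, inverted from basal to apical or gained an apical gradient. Of 12 tested airway secretory genes, 5 changed upward and 0 downward, beside 0.804% and 1.59% of all genes tested. With the adjusted p alone 6 members passed upward and 1 downward, beside 14.4% and 9.51% of all genes tested. The median was 2.97, and 0.23 over the 8 members with more than 3 counts in every pool. Bpifa1, a secreted antimicrobial protein, held 109.1, 111.3 and 112.7 CPM in control base, 6.48, 5.95 and 6.48 in control apex, 92.2, 88.2 and 91.9 in cKO base and 309.5, 304.6 and 308.9 in cKO apex. The pools did not overlap. Its gradient went from -4.14 ± 0.044 to 1.76 ± 0.02, a change of 5.90 ± 0.047 (adjusted p 3.38e-37), with control apex as the low pool. Both middle pools were low, at 0.543 CPM in control and 10.8 in cKO, so that its level did not run evenly along the coil in either genotype. Cyp2f2, a cytochrome of secretory club cells, stood at 11.3, 12.4 and 12.6 CPM in control base, 0.0339, 0.169 and 0.203 in control apex, 7.10, 8.24 and 7.45 in cKO base and 21, 23.0 and 23.5 in cKO apex, a change of 8.0 ± 0.20 (adjusted p 6.53e-24). Only Bpifa1 and Cyp2f2 inverted from basal to apical with at least 5 CPM in a pool.

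The other called members had lower levels. Sec14l3, a lipid-binding protein of airway cells, had 215 counts in cKO apex and 0 in control apex, at least 76.3-fold higher. Muc5b, a gel-forming mucin, had 47 counts in cKO apex and 3 in control apex, and its fitted change of 5.20 ± 1.4 became 8.28 without control apex replicate 1 and 7.98 without cKO base replicate 1. Bpifb1, a relative of Bpifa1, had a change of 4.25 ± 0.89. The list's summed level ran from 422.6 to 426.8 CPM in cKO apex, 78.5 to 82.1 in control apex, 184.5 to 193.4 in control base and 178.7 to 180.3 in cKO base. Bpifa1 made up 59.2% of the sum. Sec14l3, Dmbt1 and Krt5 were at 0 in control apex and Dmbt1 was at 0 in cKO apex.

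Genes of motile cilia were called upward as well: of 17 tested, 5 changed upward (Rsph4a, Ccdc108, Dnah5, Dnah3 and Dnah9) and 0 downward. Of all genes tested, 0.804% and 1.59% did. The list median was 0.46, or 0.31 over the 15 members with more than 3 counts in every pool. Dnah5, an axonemal dynein heavy chain, held 0.131, 0.298 and 0.502 CPM in control base, 0.102, 0.169 and 0.203 in control apex, 0.635, 0.473 and 0.315 in cKO base and 3.15, 2.63 and 2.99 in cKO apex. The cKO apex libraries lay above those of the other 3 pools, and the change was 3.5 ± 0.58 (adjusted p 2.24e-05). Dnah3, of the same family, had a change of 3.18 ± 0.46 and Ccdc108 one of 3.90 ± 0.62. Ccdc108 was higher in cKO middle (5.70 CPM) than in cKO apex (4.14), and stood at 0.0693 in control middle. In control and cKO middle, Dnah5 stood at 0.0923 and 1.71 CPM and Rsph4a at 0.0231 and 0.386. Rsph4a, a part of the radial spoke, had 60 counts in cKO apex and 1 in control apex, a ratio of 63.9 (95% interval 11.0 to 2563.4). Foxj1, the transcription factor that drives motile cilia, had a change of 0.58 that was not called, at 13.8 and 17.0 CPM in control base and apex and 8.49 and 15.5 in the cKO.

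Outside these lists, the gained apical gradients with at least 5 CPM in a pool were 4 genes. Mmp25, a membrane-bound protease, held 6.24, 4.53 and 4.65 CPM in control base, 5.46, 4.87 and 5.97 in control apex, 5.43, 5.48 and 5.84 in cKO base and 12.2, 12.6 and 13.1 in cKO apex. Among the 4 pools the cKO apex libraries stood apart, with the middle pools between, at 9.58 CPM in control and 8.87 in cKO. The change was 1.11 ± 0.15 (adjusted p 6.49e-07). Without control base replicate 1 it was 0.93 and fell under the fold threshold. The others were the transcripts B430305J03Rik (1.65 ± 0.32), 0610012G03Rik (1.48 ± 0.18) and Gm20458 (1.33 ± 0.27), whose libraries of a pool spread more. Gm20458 overlaps Dbndd2 and Sys1, was 1.0 without cKO base replicate 2, and was then not called.

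Lost basal gradients held platelet and bone genes. Of 10 tested platelet and megakaryocyte genes, 6 changed upward (Ppbp, Gp9, Tubb1, Treml1, Clec1b and Pf4) and 0 downward. Of all genes tested, 0.804% and 1.59% did. The list median was 1.74, or 1.03 over the 9 with more than 3 counts in every pool. All 6 called members belonged to the lost class. Ppbp, a chemokine stored in platelets, held 7.22, 7.71 and 6.4 CPM in control base, 0.237, 0.101 and 0.236 in control apex, 8.25, 7.69 and 8.16 in cKO base and 6.34, 6.49 and 5.94 in cKO apex. Control apex was the low pool, and the change was 4.83 ± 0.24 (adjusted p 2.97e-16). Tubb1, a tubulin of platelets, had a change of 3.29 ± 0.38. Gp9, a subunit of the platelet receptor for von Willebrand factor, had 77 counts in cKO apex and 3 in control apex, a ratio of 27.3 (95% interval 9.0 to 135.3). The list's summed level was 34.0 to 35.9 CPM in control base, 19.8 to 21.1 in control apex, 37.8 to 39.6 in cKO base and 34.8 to 39.2 in cKO apex, and 49.7% of it was Itga2b, an integrin subunit that was nearly level over the pools. In bulk samples, fewer cells of a type and less RNA per cell cannot be told apart.

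Bone genes were graded to the base in control and less so in cKO. Of 16 osteoblast and bone matrix genes tested, 13 were higher in control base (3.15% of all genes tested were) and 2 in cKO base (3.86% of all). The change was called for 5 upward (Col1a1, Bglap, Bglap2, Sost and Mepe) and 0 downward, beside 0.804% and 1.59% of all genes tested. The list median was 0.68. Col1a1, a chain of type I collagen, held 530.0, 528.7 and 520.1 CPM in control base, 41.2, 41.4 and 45.0 in control apex, 186.4, 184.7 and 186.2 in cKO base and 75.9, 77.8 and 76.7 in cKO apex. No pools overlapped. Its gradient shrank from -3.63 ± 0.022 to -1.27 ± 0.028, a change of 2.35 ± 0.038 (adjusted p 4.89e-29) with a lower base and a higher apex in cKO. Bglap, the gene of osteocalcin, had a change of 1.73 ± 0.11 and its near copy Bglap2 one of 1.54 ± 0.088; reads of these genes may be split between them. Postn, a matrix protein of periosteum and ligament, stood at 21.1, 21.9 and 22.5 CPM in control base and 6.56 to 10.8 in the other 3 pools, 1 of only 4 called genes with control base as the high pool, with a change of 1.54 ± 0.094. Acp5, a phosphatase of osteoclasts, had a change of 1.48 ± 0.16. The summed level of the bone list was higher in cKO base than in control base, at 14616.8 to 14664.9 CPM against 13289.9 to 13338.4 in control base, with 54.0% of it from Spp1, whose change was -0.48.

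Of the remaining rule-named genes, Cbr2, a carbonyl reductase, lost a basal gradient with control apex as the low pool, at 11.3 CPM in control base, 4.70 in control apex, 13.7 in cKO base and 17.8 in cKO apex (1.65 ± 0.098). Rbp4, the retinol carrier, was resized, at 32.2 and 0.304 CPM in control base and apex and 44.6 and 1.17 in the cKO (1.46 ± 0.28). It was the single upward call among 18 genes of tonotopy and retinoid signalling, where Calb1 was the single downward one. Calb1, the calcium buffer calbindin, stood at 6.76 and 11.7 CPM in control base and apex and 25.5 and 13.4 in the cKO (-1.71 ± 0.088), and neither gradient passed alone. It was highest in cKO middle, at 47.6 CPM. Hoxa2, a homeobox gene of the second pharyngeal arch and hindbrain, was resized as well, at 3.98 and 0.113 CPM in control base and apex and 2.59 and 0.304 in cKO (2.01 ± 0.53). Only 1 of 15 Hox genes was tested. Gria1, a glutamate receptor subunit, stood at 20.1 CPM in cKO base and 0.170 to 1.16 in the other 3 pools (-4.69 ± 0.51).

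Spiral ganglion neuron genes gave 0 calls upward and 2 downward of 26 tested, beside 0.804% and 1.59% of all genes tested. The 2 were Calb1 and Gap43, a growth-associated protein of axons at 5.07 CPM in cKO base and 1.07 to 1.17 in the other 3 pools (-1.99 ± 0.28). The list median was 0.21. With the adjusted p alone 17 members passed upward and 5 downward, beside 14.4% and 9.51% of all genes tested. The list's summed level was lower in both cKO pools, at 4335.8 to 4360.1 CPM in base and 6501.4 to 6535.3 in apex against 6250.3 to 6305.1 and 8512.7 to 8537.8 in control. Its median gradients were 0.32 in control and 0.50 in cKO. Schwann cell genes gave 0 calls of 17.

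Neutrophil genes leaned to the cKO base. Of 15 neutrophil genes tested, 0 changed upward and 4 downward (Cxcr2, Fcnb, Ngp and Camp), beside 0.804% and 1.59% of all genes tested. The list median was -0.91. Ngp, a granule protein of maturing neutrophils, held 22.9, 22.2 and 22.6 CPM in control base, 19.0, 19.5 and 18.6 in control apex, 69.1, 71.1 and 68.8 in cKO base and 24.7, 27.0 and 24.8 in cKO apex, a change of -1.20 ± 0.057 (adjusted p 9.78e-17). The summed level of the list, 364.8 to 367.8 CPM in cKO base, was above the 89.8 to 151.3 CPM of the libraries of the other 3 pools. The middle pools, which these sums leave out, held Ngp at 59.2 CPM in control and 53.0 in cKO, and Fcnb, another granule protein, at 3.64 in control middle against 3.23 in cKO base. Red blood cell genes gave 0 calls of 12, with sums of 1672.0 to 1690.7 CPM in cKO base and 933.8 to 951.0 in cKO apex against 569.1 to 570.5 and 379.4 to 386.6 in control. Macrophage genes gave 0 calls of 12 and sums of 133.7 to 214.2 CPM over the 12 libraries.

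**Figure D5:**
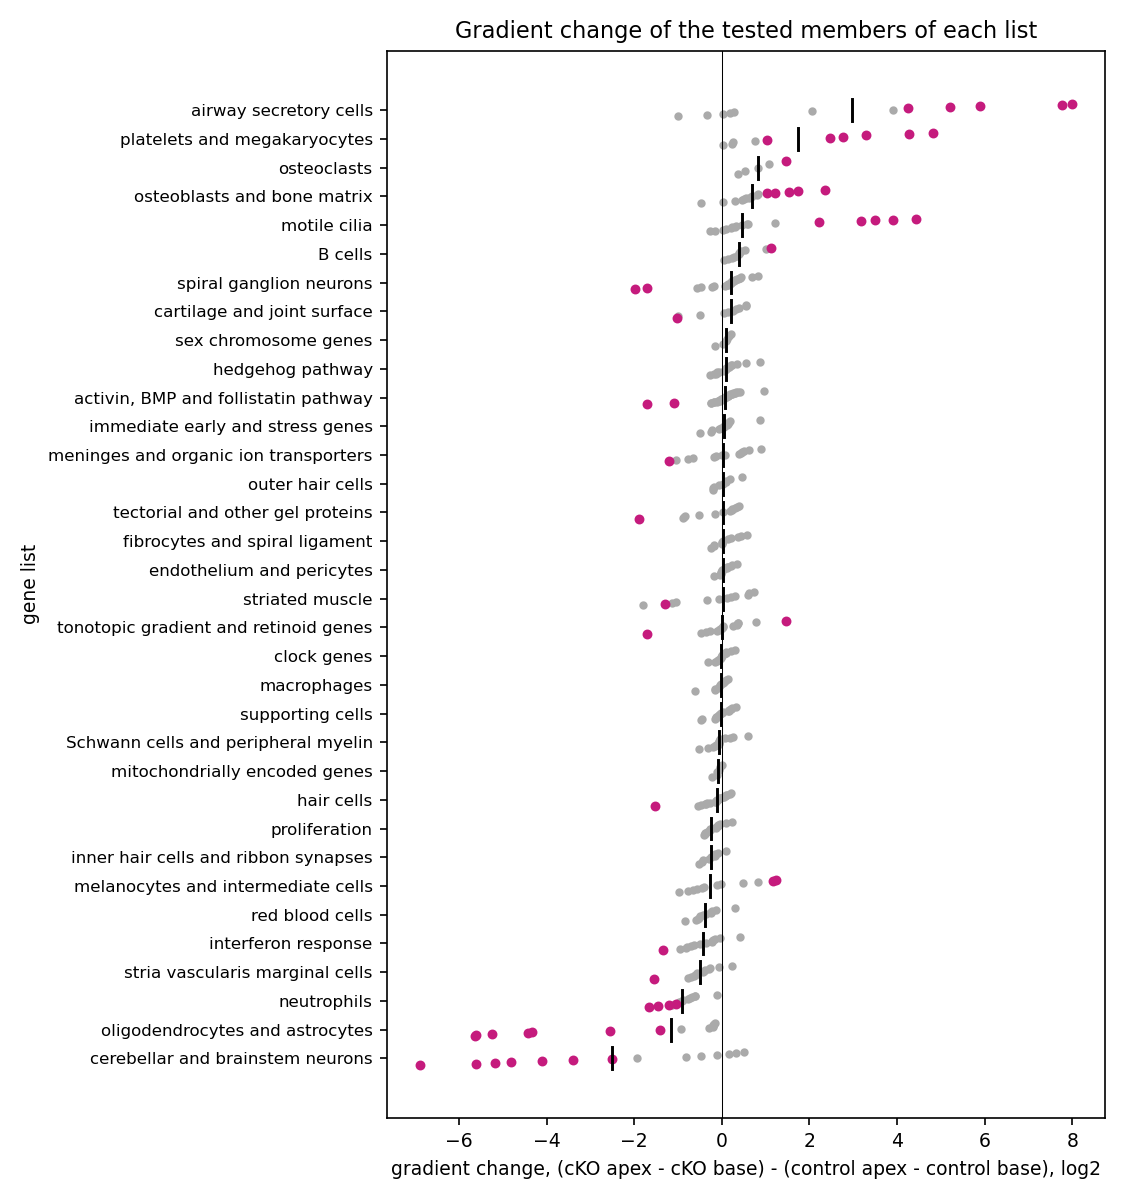
Each point is a tested member of a list, placed by its gradient change (log2, cKO apex minus base less control apex minus base), with called members in colour and black bars at the list medians. Airway and platelet genes reach highest and cerebellar and glial genes lowest, while hair cell, supporting cell and hedgehog genes lie near 0. The Hox list, with 1 tested gene, is left out. Gabra6 of the cerebellar list is not drawn but counts toward that list's median bar.

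Among the other lists, 0 to 2 members each were called, beside 2.39% of all genes tested. Called members were Prg4 (-1.02) among 10 cartilage genes and Mylpf (-1.30) among 12 muscle genes. Prg4 was not called without any 1 of cKO apex replicate 3, control apex replicate 2 or 3, or control base replicate 3 (-0.85 to -0.95). Mylpf was not called without cKO apex replicate 1, cKO base replicate 2 or control apex replicate 1 (-1.18, -1.14 and -0.98). Among 12 B cell genes the called member was Vpreb3 (1.12), not called without cKO base replicate 1 or control base replicate 2 (0.91 and 0.99). Trpm1 (1.24) and Pmel (1.17) were called among 12 melanocyte and intermediate cell genes, Slc22a6 (-1.21) among 14 meningeal and ion transporter genes, and Ifi27l2a (-1.35) among 14 interferon genes. Fibrocyte (12), endothelial (14), proliferation (15), immediate early (13), clock (15), sex chromosome (6) and mitochondrially encoded genes (6) gave 0 calls. Without the fold threshold, 6, 4, 0, 2, 2, 2 and 0 of these passed upward and 3, 1, 4, 2, 2, 0 and 5 downward. Of all genes tested, 14.4% passed upward and 9.51% downward in that way.

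Promoters are shown for the 3 genes, among those searched, that held a match to the motifs below. These are Pcp2, with a high cKO base, and Bpifa1 and Ppbp, with a low control apex. Each sequence is the 250 bases before the annotated start in RefSeq (GRCm38.p6), 5′ to 3′ on the strand of the gene. For Pcp2, which has 4 annotated starts, the most upstream was taken. Capitals mark matches, on either strand, to 4 motifs: CAGATG, an E-box bound by Neurod1 and its relatives; GTTGCC, a half-site of RFX factors of ciliated cells; AGATAA, a site of GATA factors of blood cells; and TATAAA, the TATA box. No motif overlaps another here.
Pcp2, chr8:3625548-3625797, minus strand: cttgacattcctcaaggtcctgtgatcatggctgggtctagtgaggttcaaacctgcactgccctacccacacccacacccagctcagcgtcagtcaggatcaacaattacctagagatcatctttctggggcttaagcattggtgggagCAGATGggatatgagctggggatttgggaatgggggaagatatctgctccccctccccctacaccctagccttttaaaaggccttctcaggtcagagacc
Bpifa1, chr2:154142630-154142879, plus strand: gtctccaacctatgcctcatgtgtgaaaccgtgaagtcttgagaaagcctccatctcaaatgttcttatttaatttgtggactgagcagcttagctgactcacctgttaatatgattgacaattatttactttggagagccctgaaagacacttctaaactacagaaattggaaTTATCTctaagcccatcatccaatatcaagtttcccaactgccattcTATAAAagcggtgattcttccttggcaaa
Ppbp, chr5:90768268-90768517, plus strand: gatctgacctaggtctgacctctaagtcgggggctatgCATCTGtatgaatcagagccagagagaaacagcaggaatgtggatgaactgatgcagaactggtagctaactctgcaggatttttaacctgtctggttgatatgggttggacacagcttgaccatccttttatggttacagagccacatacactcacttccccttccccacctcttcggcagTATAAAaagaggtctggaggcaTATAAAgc

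The E-box match of Pcp2 begins 100 bases before the start. In Bpifa1 the GATA match begins 76 bases and the TATA match 29 bases before it. In Ppbp an E-box match begins 212 bases and TATA matches 30 and 8 bases before it. The windows of Gabra6, Cyp2f2 and Dnah5 were also searched and held none of the 4 motifs. Shares count a gene when any of its annotated starts had a match, over the 110 genes with a high cKO base, 31 with a high cKO apex, 30 with a low control apex and 18 with a low control base that had an entry, beside all 27025 genes with one. CAGATG was found in 19.1%, 12.9%, 20% and 16.7% of these groups in that order, and in 16.3% of all genes. The shares for GTTGCC were 13.6%, 29.0%, 16.7% and 33.3%, beside 11.8% of all, the last being 6 of 18 genes. AGATAA was found in 11.8%, 6.45%, 20% and 11.1%, beside 11.4% of all. For TATAAA it was 12.7%, 9.68%, 16.7% and 0%, beside 14.3% of all. These are matches of letters and carry no test.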

How the data were processed

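RNA of mouse cochlear base, middle and apex was sequenced from control and Fst cKO pools, 3 technical libraries per pool. Libraries were made with a TruSeq kit after Ribo-Zero depletion of ribosomal RNA, per the labels' protocols. STAR 2.5.2b, Cuffdiff 2.2.1 and GRCm38/mm10 are listed without roles, per the submitters' processing notes. The authors deposited estimated counts and FPKM per gene and library; of the count values, 89.4% to 89.9% per library were whole within 1e-06. Whether counting used strand is not given in the sources used here, so genes that overlap on the other strand (as at Fst, Rgs8, Pcp2, Cyp2f2, Olig1, Pmel and Prg4) may share reads.

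The expected counts as deposited were rounded, filtered with filterByExpr (17537 of 46583 genes kept) and scaled by TMM. The interaction was fitted to the 12 libraries with edgeR 4.0.16 (R 4.3.3) by its quasi-likelihood test with Benjamini-Hochberg adjustment over all genes tested. This gave 8 residual degrees of freedom. Genes were called at an adjusted p under 0.05 and an absolute log2 value of at least 1, and the SE is that value over the square root of F. Levels are TMM-scaled CPM. Alternatives used DESeq2 1.42.0, limma 3.58.1 on log2(FPKM + 1) and log2(FPKM + 0.1) of the deposited FPKM, other scalings, filters and thresholds, and each library left out. Folds against a pool at 0 use a floor of 3 counts over the pool, ratios have exact 95% intervals, and both cover counting error only. The script was tested on simulated data.

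Named genes were Fst; among called genes with at least 5 CPM in a pool and a symbol on 1 row, the 4 largest changes in each lost, gained and inverted direction and the 2 largest resized ones of each sign; and per list up to 3 called members with the largest change or, with none called, the most abundant member. Some genes that this rule names are not reported here. All other named genes were chosen after their values were seen, among them Tectb, Slc26a5, Pou4f3, Shh, Gli1, Hhip, Id1, Id3, Smad6, Grem1, Inhba, Gabra6, Cbln1, Zic1, Grm4, Fat2, Pcp4 and Foxj1. Members and lists were chosen with earlier results of these data known. Gene positions are from GENCODE M21 and promoters from RefSeq. Replicate numbers did not pair libraries across pools, and the main fit has no block.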

Additional observations from a re-analysis of the deposited data

Results flagged for a closer look

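Each gene below had an apex to base difference that differed between the genotypes by the interaction test of edgeR, which is what set it apart for a closer look. The value is the change in gradient on the log2 scale, cKO minus control. Each rests on 1 pool per group. Among cochlear, activin-pathway and hair cell genes it was -1.09 for Fst, -1.72 for Acvr1c, -1.52 for Xirp2 and -1.89 for Otol1. Among genes of neurons whose apical gradient was lost, inverted or otherwise lowered it was -3.63 for Ppp1r17, -2.18 for Slc8a2, -1.52 for Tunar, -1.42 for Kcnj3, -1.28 for Pcp4, -6.89 for Neurod1, -3.81 for Gad1, -3.36 for Kcnd2, -3.14 for Nptx1 and -1.71 for Calb1. Among neuronal genes with a gained or enlarged basal gradient it was -7.97 for Rgs8, -5.61 for Pcp2, -5.19 for Cbln3, -3.40 for Cbln1, -4.11 for Zic1, -2.31 for Grm4, -1.23 for Fat2, -4.69 for Gria1 and -1.99 for Gap43. Among glial genes it was -4.33 for Mobp, -4.42 for Mog, -1.42 for Gfap, -5.25 for Olig1, -5.64 for Olig2 and -5.62 for Klk6. Among airway and cilia genes it was 5.90 for Bpifa1, 8.0 for Cyp2f2, 7.76 for Sec14l3, 5.20 for Muc5b, 4.25 for Bpifb1, 4.42 for Rsph4a, 3.90 for Ccdc108, 3.5 for Dnah5 and 3.18 for Dnah3. Among platelet genes it was 4.83 for Ppbp, 4.27 for Gp9 and 3.29 for Tubb1. Among bone and matrix genes it was 2.35 for Col1a1, 1.73 for Bglap, 1.54 for Bglap2, 1.48 for Acp5, 1.54 for Postn and -1.02 for Prg4. Among neutrophil and B cell genes it was -1.66 for Cxcr2, -1.46 for Fcnb, -1.20 for Ngp and 1.12 for Vpreb3. The remaining values were 1.65 for Cbr2, 1.65 for B430305J03Rik, 1.48 for 0610012G03Rik, 1.33 for Gm20458, 1.11 for Mmp25, -10.51 for Gm20388, 1.46 for Rbp4, -1.30 for Mylpf, 1.24 for Trpm1, 1.17 for Pmel, -1.21 for Slc22a6, 2.01 for Hoxa2 and -1.35 for Ifi27l2a. The fitted values of Gm20388, Olig1, Olig2, Klk6, Mog, Sec14l3, Rsph4a, Gp9, Muc5b and Bpifb1 rest on pools with at most 3 counts and are not bounds.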

How the results depend on the processing

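The 420 calls became 432 with all 6 groups in 1 fit, 420 with RLE size factors, 473 without the filter, 358 with DESeq2 and 415 with a replicate block, the paired fit. Same-numbered libraries deviated together little, with correlations of -0.176 to 0.327, and 4 of 12 correlated best with their own number. Requiring a mean of at least 5 CPM left 90 (68 downward, 22 upward; 36 gained, 5 inverted, 16 lost, 15 resized, 18 neither). Of these, 40 had a high cKO base, 3 a high cKO apex, 9 a low control apex, 8 a low control base and 25 no single pool. The adjusted p alone gave 4194 (1667 downward, 2527 upward; 1019 gained, 405 inverted, 738 lost, 1994 resized, 38 neither). A test against the fold threshold itself (glmTreat) gave 127 (95 downward, 32 upward; 74 gained, 8 inverted, 23 lost, 10 resized, 12 neither), and Fst was not among them. With limma, log2(FPKM + 1) gave 113 (84 downward, 29 upward; 68 gained, 2 inverted, 16 lost, 7 resized, 20 neither), and log2(FPKM + 0.1) gave 351, with 11 inverted and 29 resized. A larger pseudocount shrinks the fold of low genes by construction; otherwise the cause was not tested. Of the calls, 345 were shared with DESeq2 and 296 with log2(FPKM + 0.1).

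Leaving out 1 library at a time gave 404 to 427 calls (257 to 281 downward, 133 to 153 upward), with 181 to 209 gained, 25 to 32 inverted, 83 to 97 lost, 41 to 49 resized and 46 to 64 neither. The odd pool was a high cKO base in 140 to 171, a high cKO apex in 38 to 54, a low control apex in 36 to 45, a low control base in 26 to 35 and no single pool in 104 to 119. In all 12 such fits 278 of the 420 were called. The sign turned for Mylpf (0.05 with log2(FPKM + 1), 0.07 with log2(FPKM + 0.1)), Prg4 (0.02) and Slc22a6 (0.42), the latter both with log2(FPKM + 1). DESeq2 did not call Gm20458 (1.32) or Mylpf (-1.32). With 1 pool per group, no setting here measures variation between animals.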

Other observations

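Among the base and apex pools, genes with at least 30 counts in cKO base and at most 3 in each of the other 3 numbered 19, though Sox1 was also at 0.484 CPM in cKO middle, against 0.619 in cKO base. Of these, 16 were tested and 5 were called: Barhl2, Uncx, Hes3, Sox1 and Krt25. Barhl2, Uncx, Hes3 and Sox1 are transcription factors of the developing nervous system, and Krt25 is a keratin of the hair follicle. In cKO apex there were 5 such genes, of which only Sntn, a protein of motile cilia, was tested, and it was called.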
